A study of Rattus norvegicus with 6 samples.

Results

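Annexins are calcium-dependent proteins that bind acidic phospholipids, above all phosphatidylserine, on the inner face of cell membranes and on dying cells. They bridge membranes, help to seal torn plasma membrane, and several of them work as complexes with small S100 proteins. Annexin A1 is also secreted by leukocytes, is induced by glucocorticoids and limits leukocyte entry through formyl peptide receptors, and annexin A2 with its partner S100A10 collects plasminogen and its activator on the cell surface. The genes described here are Anxa1, Anxa2, Anxa3, Anxa4, Anxa5, Anxa6, Anxa7 and Anxa11, taken as the array features that the platform annotation gives to exactly 1 of these symbols. All 8 were measured, each by 1 transcript cluster, among 20530 named genes.

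RNA came from the lumbar spinal cord (L2 to L6) of 6 rats of the Sprague-Dawley strain, and each rat was measured on an Affymetrix array of its own. The lidocaine group was 3 rats given 20 µL of 10% lidocaine, a sodium channel blocker used as a local anaesthetic, intrathecally, that is into the fluid around the cord. The control group was 3 rats left untreated and not injected, so that the drug and the injection itself cannot be told apart. Cords of both groups were taken on day 4, after behavioural testing. The sources used here do not state age or sex. Values are log2 RMA summaries, so a difference of 1 is a 2-fold change relative to the other genes on the array. The comparison asks which annexin genes differed in the cord 4 days after lidocaine.

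Array medians over the named genes lay between 4.61 and 4.66 with lidocaine and between 4.56 and 4.59 in controls. The negative-control probes had medians of 2.71 to 2.81 on lidocaine arrays and 2.65 to 2.75 on control arrays, and 95th percentiles of 5.99 to 6.06 with lidocaine and 5.79 to 5.87 in controls. Of the 8 annexins none averaged below the negative-control median in either group, but Anxa1, Anxa3, Anxa7 and Anxa11 averaged below the 95th percentile in control cords. Nothing in the labels says whether litter or handling was shared, and p-values measure the spread between these 6 rats. Since whole tissue was used, more cells of a type and more RNA per cell cannot be told apart.

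Promoter stretches are shown for Anxa1 and Anxa2, which rose and are the annexins with known roles in leukocyte control and in plasminogen binding, and for Anxa4, which did not pass the test and is the annexin with a match to the NF-kB consensus. RefSeq (build GRCr8) had promoters for 7 of the 8 genes. Each stretch is printed 5′ to 3′ on the strand of the gene, and capitals mark a TATA box (TATAAA), an AP-1 site (TGANTCA) or a match to the NF-kB consensus, each searched on both strands.
Anxa1, chr1:227303733-227303862, minus strand: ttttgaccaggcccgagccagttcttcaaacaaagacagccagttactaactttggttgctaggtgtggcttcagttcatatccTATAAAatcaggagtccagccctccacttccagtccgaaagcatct
Anxa2, chr8:78986122-78986251, plus strand: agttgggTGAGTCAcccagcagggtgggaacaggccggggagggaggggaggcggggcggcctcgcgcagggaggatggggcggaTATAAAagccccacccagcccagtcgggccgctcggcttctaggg
Anxa4, chr4:120798535-120798643, minus strand: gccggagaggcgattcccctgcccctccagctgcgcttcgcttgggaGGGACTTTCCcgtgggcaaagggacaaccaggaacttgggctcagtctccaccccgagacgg

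The Anxa1 and Anxa2 stretches end at the base before the RefSeq start, and that of Anxa4 ends 22 bases before it, because the annotated span of the gene reaches that far. The Anxa1 stretch lies inside the span of a longer model of the gene. TATAAA lay 46 bases before the start in Anxa1 and 45 bases before it in Anxa2, and was found in 2 of the 7 annexin promoters against 13.1% of 27457 promoters of 250 bases. The AP-1 letters lay 123 bases before the start of Anxa2 and in no other annexin promoter searched, against 6.36% of all promoters. The match to the NF-kB consensus lay 83 bases before the start of Anxa4, and 6.41% of all promoters held one. GC boxes (GGGCGG) were found in 5 of 7 annexin promoters (32.4% of all), CCAAT boxes in 2 of 7 (34.3%) and a STAT site (TTCNNNGAA) in 0 of 7 (7.52%). A match of letters is a description and does not show that a factor binds there.

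Some annexin genes differed between lidocaine and control cords, and others did not pass the test. Anxa1, Anxa3 and Anxa2 rose 4.24-fold, 2.54-fold and 1.93-fold, Anxa7 and Anxa11 rose 1.33-fold and 1.28-fold, and Anxa4, Anxa5 and Anxa6 did not pass the test. Thus 5 of 8 annexins rose and 0 fell (limma, Benjamini-Hochberg adjusted p under 0.05 over all 20530 genes, 3 rats per group). Of all genes 23.7% were called, comprising 9.70% that rose and 14.0% that fell. With dim genes (mean log2 under 5.94) left out, 4996 genes were tested and 51.2% of them were called. Rises made up 40.9% of all calls, 30.1% when arrays were centred on the median of the named genes and 27.5% when dim genes were left out. At an unadjusted p under 0.05 Anxa6 was also lower. The median log2 difference was 0.39 over the 8 annexins and -0.01 over all genes. Among all genes 1.78% rose at least 2-fold, and Anxa1 and Anxa3 were among them. An exact permutation test of 1 gene between 3 and 3 rats cannot give a two-sided p below 0.1, which 6 of the 8 annexins reached.

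**Figure D1:**
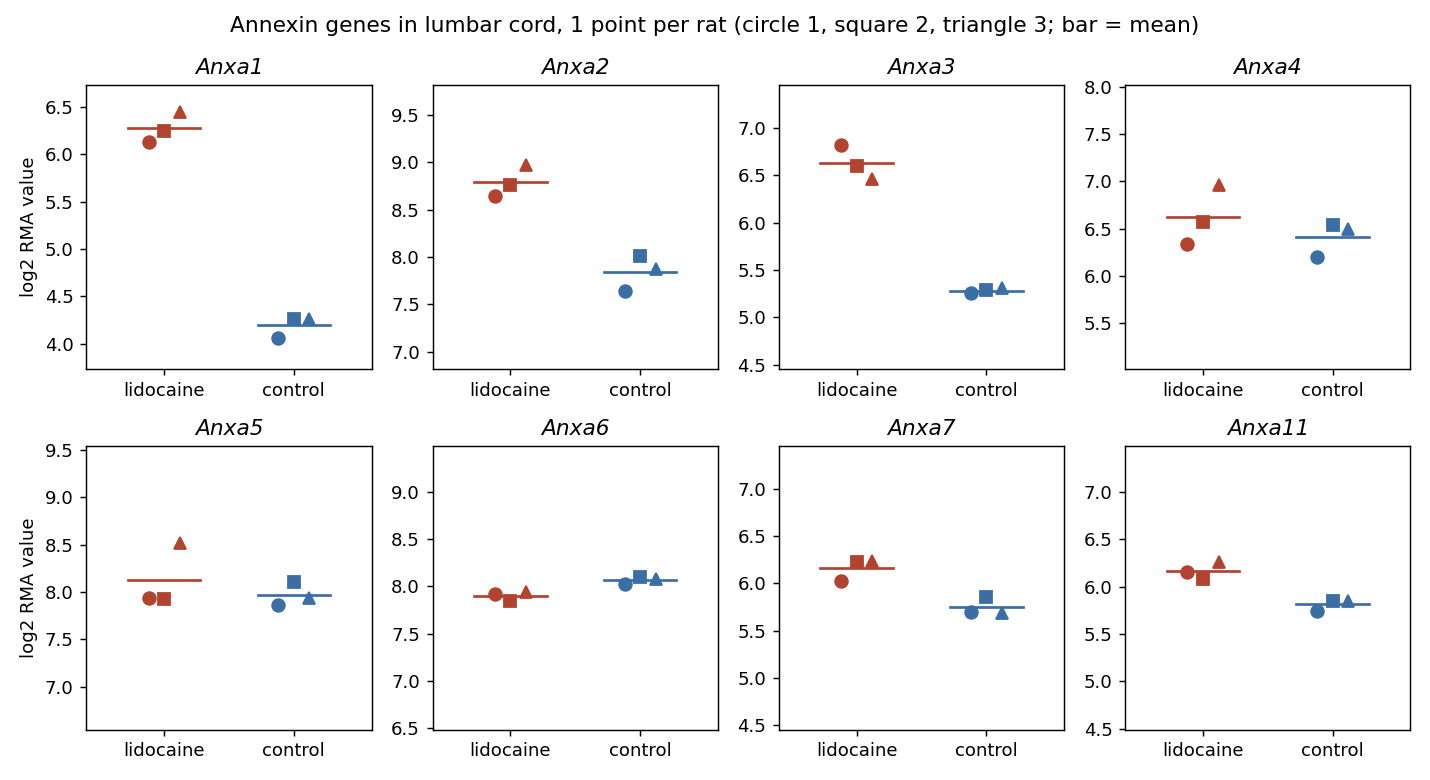
Log2 RMA values of the 8 annexin genes in each rat, lidocaine on the left and control on the right of each panel, with the group mean as a bar. Every panel spans the same number of log2 units; the groups are apart for Anxa1, Anxa2, Anxa3, Anxa7, Anxa11 and, downward, Anxa6, and overlap for Anxa4 and Anxa5.

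Anxa1, the secreted annexin that restrains leukocytes, had log2 values of 6.13, 6.25 and 6.45 in lidocaine cords, against 4.06, 4.26 and 4.26 in control cords. Every lidocaine rat lay far above every control rat, and the gap of the group means was many times the spread within either group. The log2 difference was 2.08 ± 0.10 (SE, n = 3 per group, adjusted p = 3.75e-05), with a 95% interval of 1.85 to 2.31. Only 0.234% of all genes had a larger positive difference.

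Anxa3, an annexin abundant in human neutrophils, had log2 values of 6.82, 6.60 and 6.46 with lidocaine and 5.25, 5.29 and 5.31 in controls. The control rats were nearly equal (SD 0.028) and the lidocaine rats were spread more widely (SD 0.18). Its log2 difference was 1.35 ± 0.093 (SE, adjusted p = 0.000172), with a 95% interval of 1.13 to 1.56, and 0.96% of genes rose further.

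Anxa2, which forms a complex with S100A10, had log2 values of 8.65, 8.76 and 8.97 in lidocaine cords, against 7.65, 8.01 and 7.88 in control cords. The groups did not overlap, and the lowest lidocaine rat exceeded the highest control rat. The log2 difference was 0.95 ± 0.12 (SE, adjusted p = 0.00183), with a 95% interval of 0.68 to 1.22. The pseudogene Anxa2-ps1 had a cluster of its own, which rose 2.10-fold (log2 difference 1.07 ± 0.14, SE, adjusted p = 0.00239). It had values of 7.35, 7.40 and 7.71 with lidocaine and 6.16, 6.63 and 6.45 in controls, the same order of rats as Anxa2. Near-identical copies can share probes, so the signal of the gene and that of the pseudogene cannot be told apart.

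Anxa7, also called synexin, which joins secretory granules to each other in cell-free systems, had log2 values of 6.03, 6.23 and 6.23 with lidocaine, against 5.70, 5.86 and 5.68 in controls. Its log2 difference was 0.42 ± 0.083 (SE, adjusted p = 0.0109). Anxa11, which tethers RNA granules to lysosomes, had 6.15, 6.09 and 6.26 with lidocaine, against 5.74, 5.85 and 5.84 in controls. The difference of Anxa11 was 0.35 ± 0.071 (SE, adjusted p = 0.0111). Both genes separated the groups, with 95% intervals of the fold change of 1.17 to 1.52 for Anxa7 and 1.14 to 1.43 for Anxa11. The pseudogene Anxa7-ps1, with a log2 difference of 0.29 ± 0.13 (SE), did not pass (adjusted p = 0.159), but did without lidocaine rat 1 (0.44, adjusted p = 0.0139).

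Anxa4, an annexin of epithelial and secretory membranes, had log2 values of 6.34, 6.57 and 6.97 with lidocaine and 6.20, 6.54 and 6.50 in controls. Anxa5, the annexin used as a probe of phosphatidylserine on dying cells, had 7.94, 7.92 and 8.51 with lidocaine and 7.87, 8.11 and 7.94 in controls. In both genes lidocaine rat 3 was above all other rats and the remaining lidocaine rats lay within or near the control range. The log2 difference of Anxa4 was 0.21 ± 0.16 (SE, adjusted p = 0.416, 95% interval -0.16 to 0.58). That of Anxa5 was 0.15 ± 0.16 (SE, adjusted p = 0.551, 95% interval -0.21 to 0.52), and it was -0.040 without lidocaine rat 3. Without that rat Anxa4 differed by 0.04. A missed threshold here does not show that these genes were the same in both groups.

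Anxa6, an annexin of endosomes and the plasma membrane whose core domain is duplicated, had log2 values of 7.92, 7.85 and 7.94 with lidocaine and 8.03, 8.10 and 8.08 in controls. All lidocaine rats lay below all control rats. The log2 difference of -0.17 ± 0.060 (SE) did not pass (adjusted p = 0.0873). It passed when arrays were centred on the median of the named genes (-0.21, adjusted p = 0.0408) and when dim genes were left out (adjusted p = 0.0448). In all, the groups did not overlap in 6 of 8 annexins, 5 higher and 1 lower, against 40.5% of all genes (15.9% higher and 24.6% lower).

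**Figure D2:**
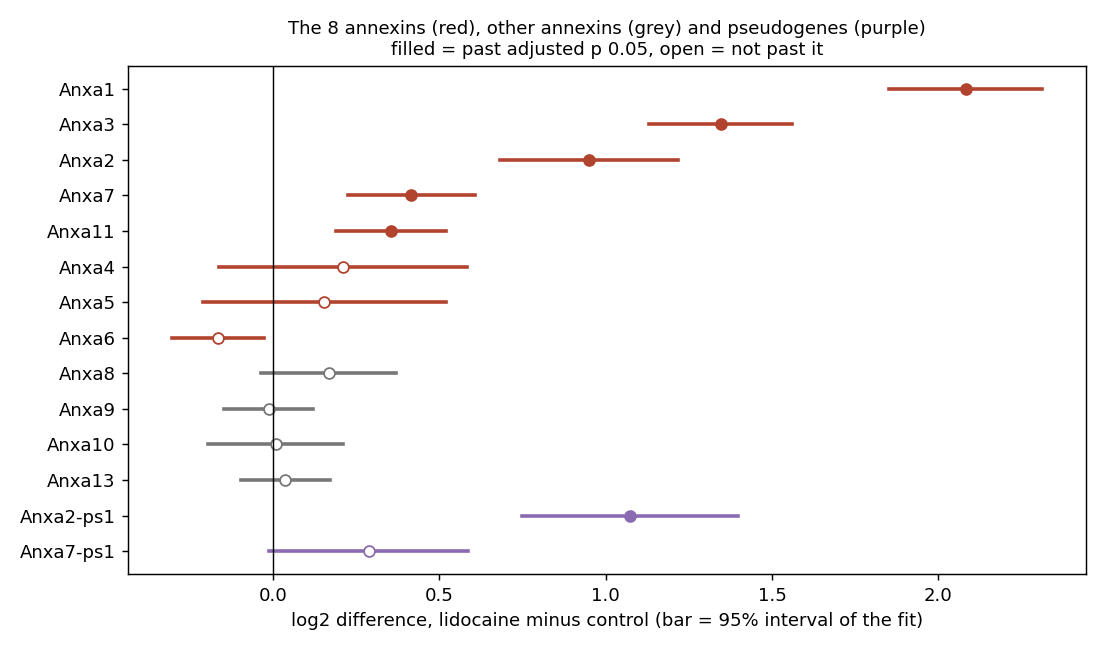
Log2 difference between lidocaine and control cords with its 95% interval from the limma fit, for the 8 annexins ordered by size, for 4 other annexins and for 2 annexin pseudogenes. Filled points passed adjusted p 0.05; those of Anxa1, Anxa3, Anxa2-ps1 and Anxa2 lie farthest right, and the intervals of the 4 other annexins include 0.

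Other annexins were dim and did not pass. Anxa8 had values of 2.96 to 3.18 with lidocaine and 2.79 to 3.03 in controls (adjusted p = 0.225), close to the negative-control median. Anxa9 lay between 3.17 and 3.25 in all 6 rats. Anxa10 and Anxa13 averaged below the negative-control median in both groups.

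The rats of a group took much the same order in most annexins. Among lidocaine rats, rat 3 was highest in 7 of 8 annexins, all except Anxa3, in which it was lowest. Among control rats, rat 2 was highest in 7 of 8 and rat 1 lowest in 7 of 8. Rat 3 stood 0.34 above the lidocaine mean in Anxa4 and 0.39 above it in Anxa5, and in Anxa3 its difference from that mean was -0.16. Array medians did not follow this order, since lidocaine rat 2 and control rat 1 had the highest. The mean log2 level of the leptomeningeal fibroblast markers was 6.59, 6.89 and 7.35 in lidocaine rats and 6.66, 6.97 and 7.07 in control rats, so that rat 3 was highest with lidocaine and rat 1 lowest in controls. Schwann cell and root markers averaged 7.39, 7.42 and 7.89 in lidocaine rats and 7.57, 8.05 and 7.69 in control rats, the order of rats seen in Anxa1, Anxa2 and Anxa4. The part of these tissues in the order of the annexins was not tested.

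**Figure D3:**
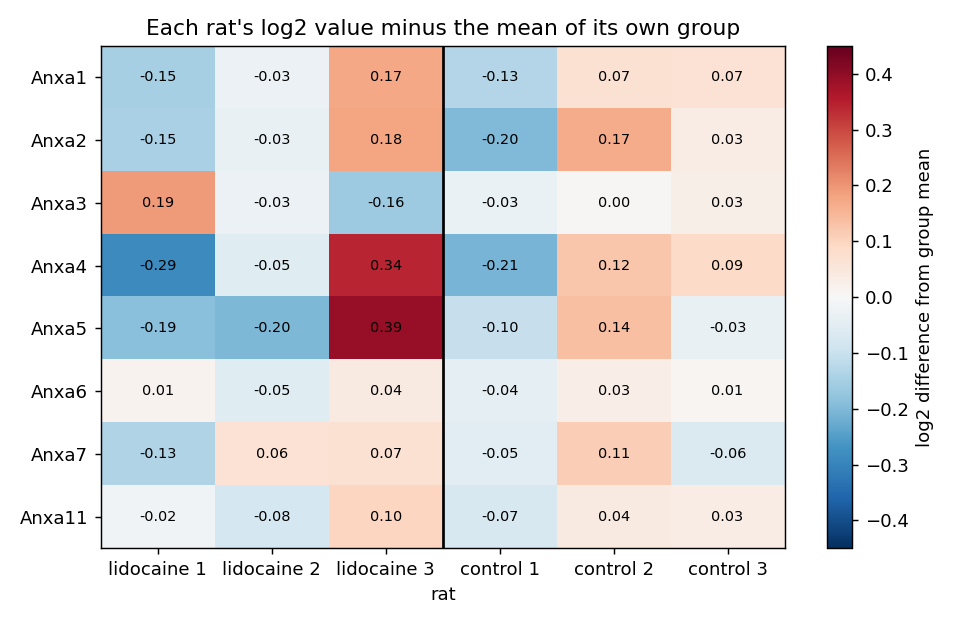
Each rat's log2 value minus the mean of its own group, for the 8 annexins. Lidocaine rat 3 is the reddest lidocaine column except in Anxa3, and control rat 1 is below its group mean in all 8 genes.

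The genes with the most similar profiles were found by the smallest root mean square difference over the 6 arrays, after each gene's own mean was subtracted. For Anxa1 they were Folr2 (0.078 log2 units) and Ifitm1 (0.147). Shc1 (0.040) and Cd63 (0.056) were nearest to Anxa2, and Lsp1 (0.070) and Tnfrsf1b (0.081) were nearest to Anxa3. Lsp1 had values of 6.25, 6.01 and 5.68 with lidocaine and 4.61, 4.66 and 4.63 in controls, so that lidocaine rat 1 was highest and rat 3 lowest, as in Anxa3. For Anxa7 the nearest were Kctd12 and Rpl8l1 (both 0.025), and for Anxa11 Pi4k2b (0.017) and Ccdc93 (0.020). All 6 arrays are shared by these profiles, and the group difference makes up most of each. Ifitm1, Lsp1, Pi4k2b and Ccdc93 averaged below the negative-control 95th percentile in both groups.

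Of 5 measured S100 genes whose proteins bind annexins, 4 rose and 1 fell, and their median log2 difference was 0.83. Of all genes 9.70% rose and 14.0% fell. S100a10, the partner of annexin A2, had log2 values of 8.40, 8.87 and 8.86 with lidocaine, against 7.73, 8.04 and 7.86 in controls, and rose 1.78-fold (adjusted p = 0.00614). S100a11, which binds annexin A1, had 8.27, 8.62 and 8.84 with lidocaine and 7.66, 7.40 and 7.44 in controls, a 2.11-fold rise (adjusted p = 0.00252). S100a4, linked to cell motility, rose 2.99-fold (adjusted p = 0.00201), and S100a6, a partner of annexin A11 named after its value was seen, rose 1.44-fold (adjusted p = 0.0067). S100a1, a calcium sensor that can bind annexin A6, was the member that fell, with a log2 difference of -0.61 (adjusted p = 0.00225).

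Formyl peptide receptors are the receptors through which annexin A1 acts on leukocytes. Of 7 listed genes 4 were measured, Fpr1, Fpr3, Fpr2l1 and Fpr2l2, and these were not detectable above background on these arrays. All 4 measured averaged below the negative-control median in both groups and 0 passed (limma, 0 also at an unadjusted p under 0.05). Fpr1 had 1.55, 1.41 and 1.41 with lidocaine and 1.34, 1.31 and 1.46 in controls (adjusted p = 0.453), and Fpr3 had an adjusted p of 0.452. No fold is given for them.

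Annexin A2 and S100A10 collect plasminogen and its activator on the cell surface. Of 8 measured genes listed around this system, 4 rose and 0 fell (limma, 0 fell also at an unadjusted p under 0.05). Among all genes 9.70% rose and 14.0% fell. Plau, the urokinase-type plasminogen activator, had log2 values of 5.12, 5.08 and 5.20 with lidocaine and 3.67, 3.69 and 3.76 in controls, a 2.69-fold rise (adjusted p = 3.56e-05). Its receptor Plaur rose 2.18-fold (adjusted p = 0.00132), and both genes averaged below the negative-control 95th percentile in both groups. Tspan4, a tetraspanin that the list also held, rose 1.31-fold (adjusted p = 0.0274). Its call did not hold when control rat 1 or 3, or lidocaine rat 2 or 3, was left out (0.0503 to 0.0989). The inhibitor gene Serpinb2 passed (adjusted p = 0.0195) but averaged below the negative-control median in both groups, and its call was lost without any 1 control rat (0.0531 to 0.0658).

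Phospholipase A2 and eicosanoid genes, whose pathway annexin A1 is known to restrain, rose in 5 of 9 cases, and 1 fell. Among all genes the shares were 9.70% that rose and 14.0% that fell. Pla2g4a, the cytosolic enzyme that frees arachidonic acid, had 6.43, 6.21 and 5.95 with lidocaine and 5.22, 5.18 and 5.07 in controls, and rose 2.05-fold (adjusted p = 0.00132). The secreted enzyme Pla2g2a rose 2.36-fold (adjusted p = 0.000603). Ptgs2, the inducible cyclooxygenase, rose 5.32-fold, and Alox5ap, which activates 5-lipoxygenase, rose 3.02-fold (adjusted p = 0.000318 and 0.00187). In Pla2g4a, Ptgs2 and Alox5ap lidocaine rat 1 was highest and rat 3 lowest, as in Anxa3 and opposite to Anxa1. The fifth rise and the fall, named after their values were seen, were Ptges (adjusted p = 0.0251), a prostaglandin E synthase, and Pla2g6 (adjusted p = 0.0479), a calcium-independent phospholipase. Leaving out any 1 control rat, or lidocaine rat 1 or 2, ended both calls, and that of Pla2g6 was also lost with quantile normalization (0.0631) and with the replicate block (0.122).

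Glucocorticoid response genes, among which Anxa1 is usually counted, showed 1 rise and 0 falls among 7 measured (limma, the same count at an unadjusted p under 0.05). Over all genes 23.7% were called, with 9.70% that rose and 14.0% that fell. Dusp1, a phosphatase of MAP kinases, rose 1.72-fold (adjusted p = 0.0405), but control rat 1 at 6.39 stood near the lidocaine rats at 6.57, 6.76 and 6.45, and the other two controls were at 5.57 and 5.47. Dusp1 no longer passed when control rat 2, control rat 3 or any 1 of the lidocaine rats was left out (adjusted p 0.0603 to 0.141). Tsc22d3, also called GILZ, had a log2 difference of -0.25 ± 0.13 (SE, adjusted p = 0.213), and one of -0.11 without lidocaine rat 3.

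Of 14 genes of membrane repair and annexin-binding proteins, 2 rose and 1 fell, with a median log2 difference of 0.03, so the share called was close to the 23.7% of all genes. Mvp, the major vault protein, rose 1.41-fold (adjusted p = 0.0028), and Trim72, a repair protein of muscle, rose 1.27-fold (adjusted p = 0.0247). Trim72 did not pass when lidocaine rat 2, control rat 2 or control rat 3 was left out (adjusted p 0.0654 to 0.0851), or with the replicate block (0.0617). Otof, a ferlin of vesicle release in hair cells, fell by 0.32 on the log2 scale (adjusted p = 0.0113).

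Genes that recognise or expose phosphatidylserine, the lipid that annexins bind, rose in 6 of 15 cases, and 2 fell. Pros1, protein S, a ligand that links phosphatidylserine to engulfment receptors, had 7.15, 7.03 and 7.26 with lidocaine and 5.79, 6.01 and 5.91 in controls, and rose 2.37-fold (adjusted p = 0.00016). Its receptor Mertk rose 1.53-fold (adjusted p = 0.0031), and the phosphatidylserine receptor Havcr2, also called TIM-3, rose 1.33-fold (adjusted p = 0.0062). The remaining rises, named after their values were seen, were Axl (adjusted p = 0.0256), a relative of Mertk, Stab1 (adjusted p = 0.0174), a scavenger receptor, and Ano6 (adjusted p = 0.0146), a lipid scramblase. Axl did not pass without any 1 control rat (0.0656 to 0.0773), nor Stab1 without control rat 1 or 3 (0.0535 and 0.064). Adgrb1, also called BAI1, an engulfment receptor, fell by 0.42 on the log2 scale (adjusted p = 0.00734). The other fall, named after its value was seen, was Gas6 (adjusted p = 0.026), a ligand of Mertk, which did not pass without any 1 control rat, without lidocaine rat 1 or 3, with quantile normalization or with the replicate block (0.0535 to 0.0886). Over the 7 partner and pathway lists together, 22 of 62 genes rose, 5 fell and 35 did not pass, against 9.70% of all genes that rose and 14.0% that fell. With dim genes left out 8 of the genes rose and 3 fell, and fewer than 62 were tested. Alox5ap, Dusp1, Mertk, Ano6 and Pros1 passed that filter only through their lidocaine values, and Adgrb1 only through its control values. Their calls there are no support. In that setting 51.2% of all genes tested were called, and 27.5% of those calls were rises. The share of the tested partner genes that were called did not exceed that 51.2%. The median log2 difference over the 62 genes was 0.13. Many named genes of these lists with a call averaged below the negative-control 95th percentile in both groups. They were S100a4, S100a6, Plau, Plaur, Tspan4, Serpinb2, Pla2g2a, Pla2g6, Mvp, Trim72, Otof, Havcr2 and Stab1.

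**Figure D4:**
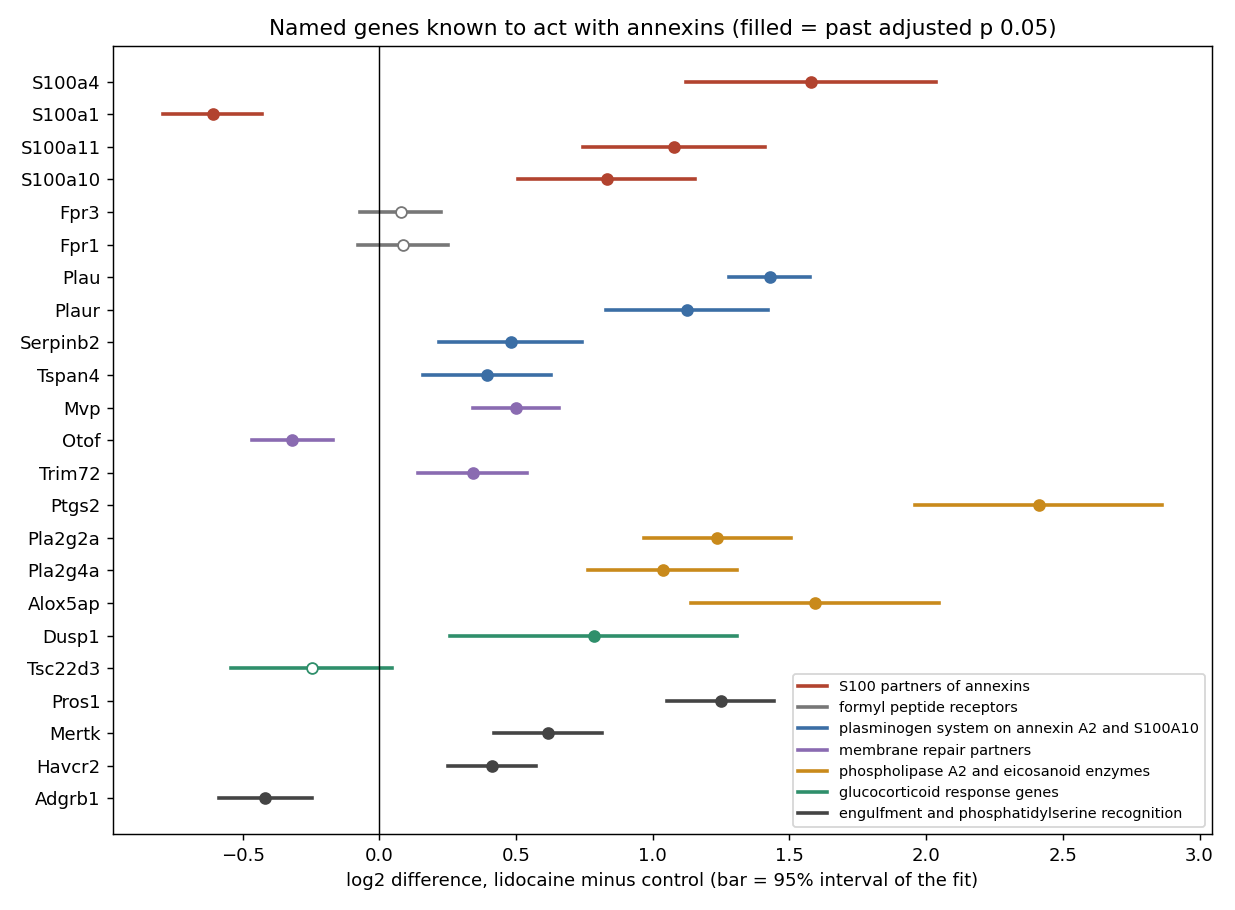
Log2 difference between lidocaine and control cords with its 95% interval, for up to 4 genes of smallest p in each of 7 lists known to act with annexins, coloured by list. Filled points passed adjusted p 0.05; Ptgs2 lies farthest right, and S100a1, Adgrb1 and Otof are the filled points left of 0; the falls of Gas6 and Pla2g6 are not plotted.

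Markers of cell types moved in the same comparison, in which 9.70% of all genes rose and 14.0% fell. Microglia and macrophage markers rose in 7 of 8 cases, with mean log2 levels of 6.72 to 6.996 with lidocaine and 5.51 to 5.61 in controls. Of 7 markers listed for monocytes and infiltrating macrophages 5 were measured and all 5 rose, with means of 6.50 to 6.74 with lidocaine and 4.45 to 4.63 in controls. Neutrophil markers rose in 6 of 10 cases, with 4.67 to 5.004 with lidocaine and 3.64 to 4.02 in controls. Among those that rose, S100a8, Mmp8, Mmp9, Csf3r and Elane averaged below the negative-control 95th percentile in both groups. Mpo, Camp, Ltf and Ngp did not pass. Whether cells had entered the cord was not tested. Clec7a, a glucan receptor of myeloid cells, rose 12.7-fold, Tyrobp 3.50-fold and S100a9 4.79-fold. Neuron markers fell in 6 of 6 cases, with means of 7.81 to 8.15 with lidocaine and 8.45 to 8.56 in controls, and oligodendrocyte markers in 3 of 4, and 0 of 5 endothelial markers passed (limma; 0 also at an unadjusted p under 0.05). Lymphocyte markers rose in 2 of 7 cases and fell in 0. The share called in either direction was close to the 23.7% of all genes, of which 9.70% rose. The 2 were Cd2 (adjusted p = 0.0097) and Cd8a (adjusted p = 0.0121), both below the negative-control 95th percentile in both groups. In control cords Cd2 also averaged below the negative-control median. Means of the lymphocyte list were 3.41 to 3.72 with lidocaine and 3.31 to 3.39 in controls. Astrocyte markers moved both ways, as 1 of 5 rose and 2 fell. Gfap rose by 0.80 on the log2 scale (adjusted p = 0.0033), and Aldh1l1 fell by 0.56 (adjusted p = 0.00099). Aldh1l1 averaged below the negative-control 95th percentile in both groups. Aldoc fell by 0.46 (adjusted p = 0.0281), but did not pass without any 1 control rat (0.0655 to 0.0965). Ependymal markers had list means of 3.81 to 3.997 with lidocaine and 4.06 to 4.27 in controls, and 1 of 3 fell. That gene, Tmem212 (adjusted p = 0.0319), averaged below the negative-control 95th percentile in both groups. Tmem212 did not pass without control rat 3 or without any 1 lidocaine rat (0.0508 to 0.0823). The neutrophil marker Ltf and the lymphocyte markers Cd3e, Cd3d and Ms4a1 averaged below the negative-control median in both groups. The part of these cells in the annexin values was not tested.

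**Figure D5:**
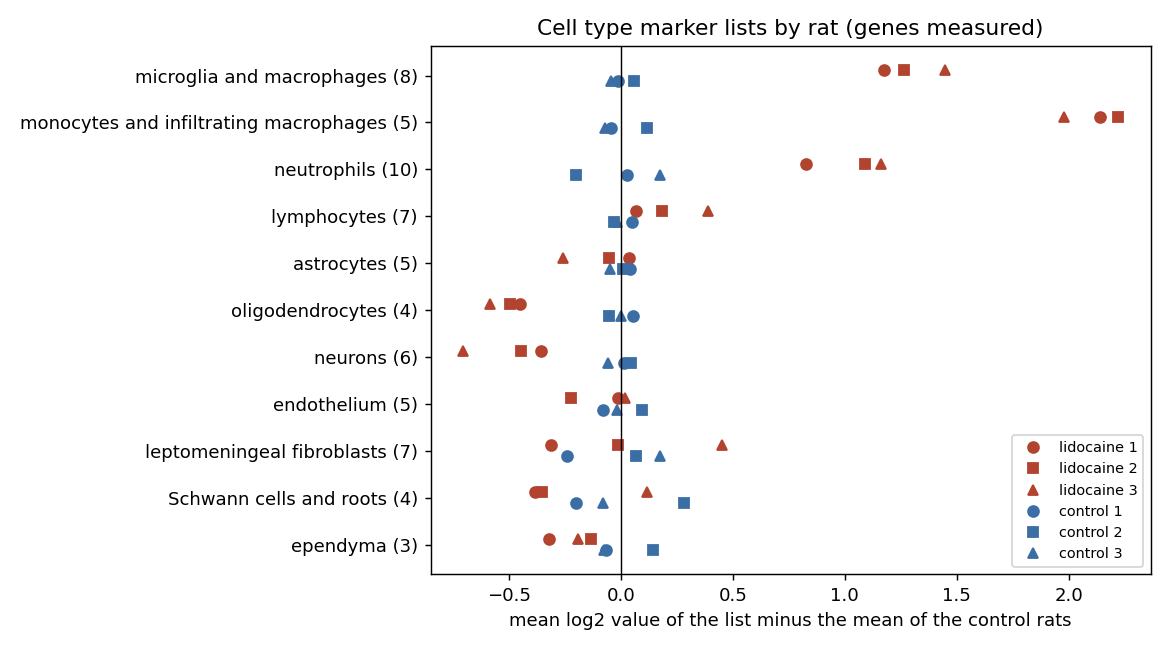
Mean log2 value of each cell type marker list in each rat, minus the mean of the 3 control rats, with the number of genes measured in brackets. The 3 lidocaine rats lie right of the 3 control rats for the microglia, monocyte, neutrophil and lymphocyte lists and left of them for neurons, oligodendrocytes and ependyma.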

How the data were processed

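RNA of 6 lumbar cords was labelled with biotin from 150 ng, per the labels' protocols. The deposited values are log2 summaries per transcript cluster after RMA, per the submitters' processing notes; for the software version, build and annotation, the sources used here give nothing. RMA equalises probe distributions, so changes are relative, and dim genes may be understated. Of 63789 clusters, 21560 named 1 gene, 471 several (not used) and 41758 none. The brightest cluster per gene was kept, leaving 20530 genes. Groups and numbers come from the titles. Lidocaine was set against control by limma (version 3.58.1, lmFit and eBayes, R 4.3.3), two-sided, and p-values were adjusted by Benjamini-Hochberg over the whole table, with 0.05 as the limit. The steps were tested on simulated data. Named genes are the members, up to 4 genes with the smallest p per list and the 2 nearest profiles per called member; further genes were named after their values were seen. Members, lists and tests were chosen with earlier results of these data known. Gene symbols absent from the table were not analysed here. The 13 alternatives cover scaling, filter, cluster choice, variance model, pairing and each rat left out. The control-to-lidocaine correlation of deviations from group means was -0.063, -0.238 and 0.142 for same-numbered rats, so the numbers were not taken to pair them.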

Additional observations from a re-analysis of the deposited data

How the results depend on the processing

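Anxa2, Anxa3, Anxa7 and Anxa11 kept their direction and call under all 13 alternatives, and Anxa1 under the 12 that gave it a value, with the largest adjusted p at 0.0473 for Anxa7. The filter on dim genes (mean log2 under 5.94) removed Anxa1, and kept Anxa3, Anxa7 and Anxa11 through their lidocaine values alone, so their calls there are no support. Anxa6 differed by -0.17 with that filter and by -0.21 with arrays centred on the median, and was then called, which made 1 fall among the annexins in each. Anxa5 was at -0.040 without lidocaine rat 3. Leaving out 1 rat gave 2.00 to 2.16 for Anxa1, 0.85 to 1.03 for Anxa2, 1.25 to 1.43 for Anxa3, 0.04 to 0.35 for Anxa4, -0.040 to 0.26 for Anxa5, -0.19 to -0.14 for Anxa6, 0.38 to 0.48 for Anxa7 and 0.31 to 0.39 for Anxa11, with 5 annexins called each time. Among partner genes 27 calls became 11 with dim genes left out, 8 higher and 3 lower. Some of these genes passed that filter only through their higher group, so their calls there are no support. Of the partner genes 3 fell with quantile normalization, 3 with the replicate block, and 3 to 5 with 1 rat left out, when 18 to 26 were called in all. Over all genes 4867 calls became 2556 without dim genes (702 higher, 1854 lower), where 4996 genes were tested and 51.2% were called. With 1 rat left out, 2754 to 4335 genes were called, 1299 to 1912 higher and 1342 to 2423 lower; control rat 2 (2754) and control rat 3 (2906) mattered most. Rises were 40.9% of calls, and 30.1% after median centring and 27.5% without dim genes, which put the median of all genes at -0.13. The replicate block called 4005 genes and the same 5 annexins, with Anxa1 at 2.08 and Anxa7 at adjusted p = 0.0167. Of 76 other named genes, 12 lost their call and 1 gained one under some alternative; Anxa13, at background, was at -0.010 with median centring and -0.019 with quantile normalization. The number of arrays and the signal over background of Anxa1 in controls limit the precision.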
